A study of Mus musculus with 16 samples.

Results

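The genes described are those of the extracellular side of Wnt signalling: the Wnt ligands, their Frizzled and Lrp receptors, and the secreted antagonists of the Sfrp, Dkk and Wif families. They were picked by gene name among the probes of the array, and 40 of 28657 genes matched. Of these, 19 encode ligands, 12 receptors and 9 antagonists. All 40 passed the filter on dim signals, which left 27264 genes for testing.

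Wnt proteins are lipid-modified secreted signals that bind Frizzled receptors at the cell surface. In the canonical branch the receptor joins the co-receptor Lrp5 or Lrp6, beta-catenin escapes degradation, and target genes are switched on, among them several that damp the pathway again. Sfrp and Wif1 proteins bind the ligands themselves, whereas Dkk1, Dkk2 and Dkk4 act on the co-receptors. In the developing brain the pathway is known for roles in regional patterning, progenitor division, axon growth and synapse formation.

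The cells were GABAergic neurons of GAD67-eGFP mice on a C57Bl/6 background, a reporter strain whose fluorescence follows expression of glutamate decarboxylase 67. Cells were taken at postnatal day 1 and sorted by fluorescence. Whole brains of 4 mice gave 4 arrays, and the olfactory bulb, cortex, striatum and cerebellum dissected from 6 mice gave 3 arrays each. On each of the 16 two-colour arrays the sorted cells carried Cy5, and a total brain reference from 4 unsorted mice of the same age carried Cy3. Both had been amplified by global PCR. A positive log2 ratio therefore means a higher signal in sorted cells than in total brain. No treatment is given for any group. The labels call the samples biological replicates but do not say whether regional samples share animals or pool several.

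Median spot signals ran from 150.9 to 717.5 units for sorted cells, and from 92 to 254 for total brain. Arrays of 1 group correlated at 0.936 to 0.992, a value taken across genes and not across independent replicates. The mean log2 ratio over 7 markers of GABAergic neurons was 1.87 to 2.27 in the forebrain arrays, 0.80 to 1.06 in whole brain and 0.62 to 0.87 in cerebellum. Gad1, which encodes glutamate decarboxylase 67, was higher than the reference by 0.79 to 0.91 in the regions but was at -1.51 ± 0.08 (SE, n = 4) in whole brain. Whole-brain arrays and regional arrays were scanned on 2 separate days, so scan day and group cannot be told apart in any comparison between them.

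Against total brain, each class held genes on both sides of the reference, and no test compared the classes. Of the 19 ligands, 9 to 11 were called higher and 4 to 7 lower, depending on the group. Of the 12 receptors, 3 or 4 were called higher and 6 or 7 lower, and of the 9 antagonists 1 to 3 higher and 4 or 5 lower. The shares of all genes called higher and lower in each group are not given here, so these splits cannot be set against them. The median log2 ratio of the 19 ligands ran from 0.20 in olfactory bulb to 0.36 in cerebellum, where the median of all genes ran from 0.03 to 0.09. For the 12 receptors it ran from -0.23 to -0.15, and for the 9 antagonists from -0.64 to -0.06. Calls at an adjusted p under 0.05 (limma, Benjamini-Hochberg over all genes) came to 34 of 40 in whole brain, beside 79.7% of all genes tested. Olfactory bulb had 30 calls (67.9% of all genes), cortex 30 (69.5%), striatum 33 (67.6%) and cerebellum 32 (76%). Those called and at least 2-fold from the reference numbered 10 in whole brain (22.3% of all genes) and 10 in cerebellum (16.7%). Olfactory bulb had 7 (14.4%), cortex 7 (13.9%) and striatum 3 (9.43%).

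Called in 1 direction in all 5 groups were 18 members. Higher in every group were 8 (20.9% of all genes were), namely the ligands Wnt4, Wnt5b, Wnt6, Wnt9a, Wnt10b and Wnt11, the receptor Fzd10 and the antagonist Sfrp4. Lower in every group were 10 (17.8% of all genes), namely the ligands Wnt2b, Wnt3 and Wnt8b, the receptors Fzd4, Fzd6 and Fzd7, and the antagonists Dkk3, Sfrp1, Sfrp5 and Wif1. Some of these calls were weak or not shared by a second probe, and the cases given here are not all of them. The second probes of Wnt6 and Wnt9a had group means of -0.36 to 0.07 and -0.30 to 0.08. That of Fzd10 had -1.09 to -0.77. Sfrp4 lost its call in cortex without cortical array 2, and Wnt3 lost its regional calls with median centring. The call of Fzd7 in cerebellum, at -0.21, turned to 0.08 when arrays were centred on their median in place of loess, and was lost without cerebellar array 2 (adjusted p = 0.274) or 3 (adjusted p = 0.0872). That of Fzd4 in cortex, at -0.23, was lost without any 1 of the 3 cortical arrays (adjusted p up to 0.133). That of Wnt2b in olfactory bulb, at -0.26, was lost without array 2 (-0.19, adjusted p = 0.23) or array 3 (-0.23, adjusted p = 0.151), and in cortex without array 2 (adjusted p = 0.0554). Another 4 members were called in both directions, namely Fzd3, Fzd8, Lrp6 and Wnt2. For the genes below the reference in these sorted cells, fewer cells with the transcript and less RNA per cell cannot be told apart.

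**Figure D1:**
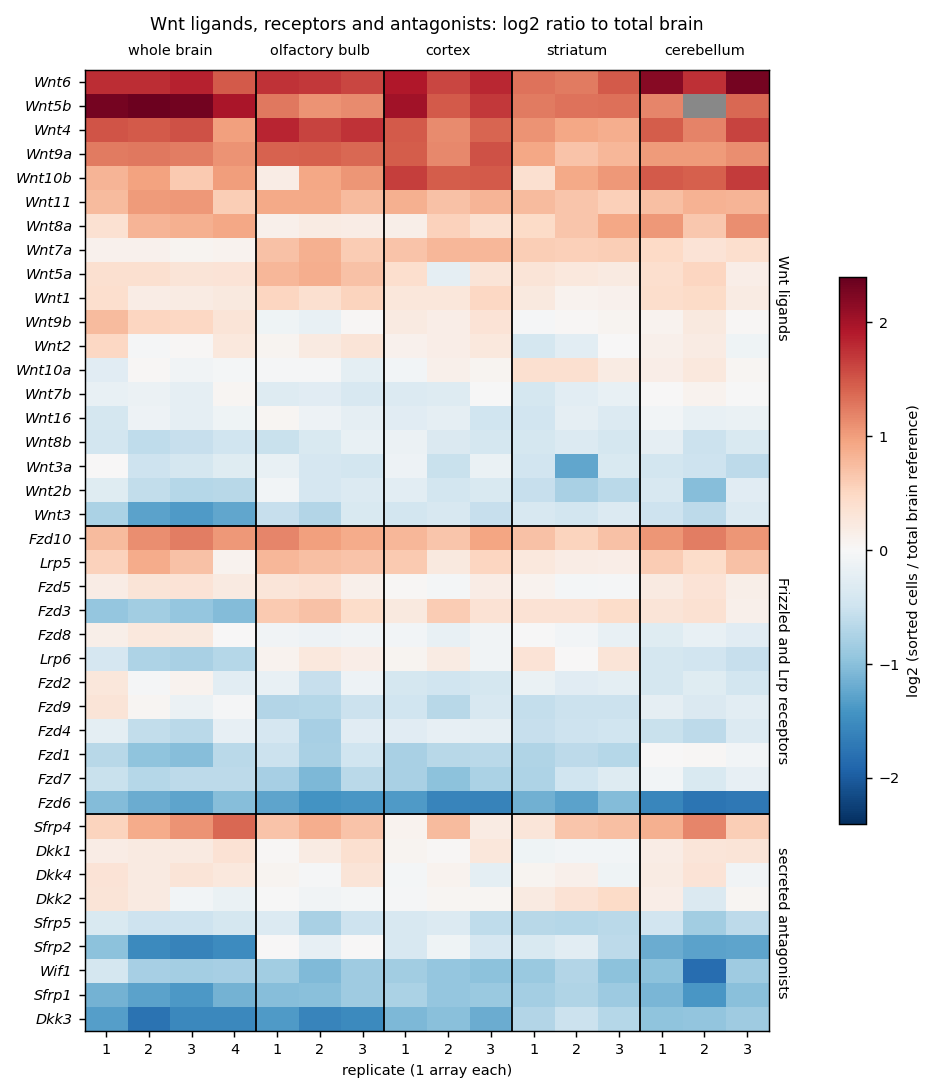
Log2 ratio of sorted cells to total brain for the 40 members (rows, ordered by mean within ligands, receptors and antagonists) on the 16 arrays (columns, by group). Red is higher and blue is lower than the reference, and the grey cell is a spot marked by the scanner software. Wnt6, Wnt5b and Wnt4 lie above 0 and Fzd6, Sfrp1 and Dkk3 below 0 on every array measured.

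Wnt5b, a ligand mainly known for signalling without beta-catenin, had the largest ratio of any member in whole brain. It read 2.29, 2.36, 2.31 and 1.95 in the whole-brain arrays, 1.26, 1.08 and 1.13 in olfactory bulb, and 2.01, 1.47 and 1.69 in cortex. In striatum it read 1.25, 1.31 and 1.32, and in cerebellum 1.17 and 1.38, with the spot of the other cerebellar array marked by the scanner. The cortical arrays lay above all other regional arrays, and overlapped those of whole brain. The whole-brain mean of 2.23 ± 0.08 (SE, n = 4) is a 4.69-fold higher signal than in total brain (adjusted p = 2.7e-15). A second, dimmer probe gave group means of 0.70 to 1.15, also above the reference, but with whole brain at 0.93, cortex at 1.04 and olfactory bulb at 1.1.

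Wnt4, a ligand that can act through either branch, rested on 1 probe. It read 1.51, 1.47, 1.52 and 0.98 in whole brain, 1.83, 1.62 and 1.74 in olfactory bulb, and 1.48, 1.14 and 1.40 in cortex. In striatum it read 1.08, 0.92 and 0.88, and in cerebellum 1.46, 1.19 and 1.63. The 3 striatal arrays lay below every other regional array, and the olfactory bulb arrays overlapped those of cerebellum but of no other group. The olfactory bulb mean of 1.73 ± 0.10 (SE, n = 3) is 3.32-fold above total brain (adjusted p = 5.22e-12). Against the other 3 regions the olfactory bulb was higher by 0.49 ± 0.11 (adjusted p = 0.00321), and the striatum was at -0.54 ± 0.11 (adjusted p = 0.0016, but 0.0951 with median centring and 0.0659 in the sorted-cell channel alone).

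Wnt6 and Wnt9a had high ratios that their other probes did not share. The brighter Wnt6 probe read 1.77, 1.78, 1.84 and 1.48 in whole brain, 1.73, 1.70 and 1.60 in olfactory bulb, 1.93, 1.61 and 1.81 in cortex, 1.31, 1.25 and 1.48 in striatum, and 2.18, 1.75 and 2.29 in cerebellum. Striatum was below all other regional arrays, and cerebellum overlapped cortex and whole brain. The other Wnt6 probe had group means between -0.36 and 0.07. The brighter Wnt9a probe read 1.25, 1.26, 1.23 and 1.08 in whole brain, 1.42, 1.44 and 1.38 in olfactory bulb, 1.45, 1.16 and 1.53 in cortex, 0.92, 0.69 and 0.80 in striatum, and 1.03, 1.03 and 1.12 in cerebellum. Here too the striatum lay below every other array. The other Wnt9a probe had group means between -0.30 and 0.08, so neither ligand has a level on which its probes meet.

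Wnt10b, a canonical ligand, split the regions into a high and a low pair. It read 1.65, 1.46 and 1.48 in cortex and 1.48, 1.44 and 1.68 in cerebellum. It read 0.17, 0.93 and 1.06 in olfactory bulb, 0.39, 0.90 and 1.04 in striatum, and 0.81, 0.96, 0.63 and 1.00 in whole brain. Every cortical and cerebellar array lay above all arrays of the other 3 groups. The range between regional means was 0.82 (moderated F test, adjusted p = 0.000657), and the call among regions was kept under every alternative run. Wnt10b has no second probe, so the mean of all probes did not test it. The single-region calls were less steady: without olfactory bulb array 1 the difference of that region from the others went from -0.56 to -0.29, with adjusted p = 0.137.

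Among the ligands below the reference, Wnt3, a canonical ligand, was the only one at least 2-fold lower in any group. It read -0.76, -1.29, -1.36 and -1.25 in whole brain, -0.55, -0.71 and -0.36 in olfactory bulb, -0.44, -0.38 and -0.55 in cortex, -0.38, -0.45 and -0.33 in striatum, and -0.49, -0.62 and -0.32 in cerebellum. Whole brain did not overlap the regions. Its mean of -1.16 ± 0.08 (SE, n = 4) is a 2.24-fold lower signal (adjusted p = 4.61e-11). The second Wnt3 probe had group means from -0.43 in cerebellum to -0.08 in olfactory bulb. Whole brain was at -0.38 on it, and so not the lowest group. With median centring the 4 regional differences of Wnt3 from the reference were no longer called, at -0.21 to -0.05.

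Wnt5a, the close relative of Wnt5b, was highest in olfactory bulb, with 0.80, 0.87 and 0.70 on the arrays. The other regional arrays ran from -0.22 to 0.51 and the whole-brain arrays from 0.30 to 0.39, so the olfactory bulb did not overlap any other group. Its difference from the other 3 regions was 0.53 ± 0.10 (adjusted p = 0.00072). Wnt7a, a ligand known from axon and synapse formation, had a mean of 0.40 in cerebellum and 0.58 to 0.75 in the forebrain regions. Wnt8a had its highest regional mean in cerebellum (0.94) and its lowest in olfactory bulb (0.17). Wnt11, another ligand of the branch without beta-catenin, differed little between groups, with means from 0.67 to 0.86.

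The remaining ligands were within 2-fold of the reference in every group. Wnt1 and Wnt2 were lowest in striatum among the regions, at 0.14 and -0.23, with regional highs of 0.48 and 0.20 in olfactory bulb. Wnt10a was at 0.32 in striatum and between -0.10 and 0.15 in the other regions, but this striatal value went to -0.01 with median centring. Wnt7b was at 0.03 in cerebellum and between -0.32 and -0.21 in the forebrain, values that turned to between 0.04 and 0.16 with median centring. Wnt2b and Wnt8b were called lower in all 5 groups, at -0.66 to -0.26 and -0.52 to -0.30. Wnt16 was at -0.33 to -0.10, while Wnt9b lay between -0.09 and 0.24 in the regions and at 0.52 in whole brain. Wnt3a, a canonical ligand, was called lower in striatum, at -0.69, in cerebellum, at -0.53, in olfactory bulb, at -0.34, and in whole brain, at -0.31. The calls in olfactory bulb and whole brain were lost under 2 and 3 of 23 alternatives. The sorted-cell signal of Wnt3a was well above background on 5 of 16 arrays, with 1 of 3 in striatum. None of the 5 was from olfactory bulb or cortex, where its signal was at least 1.22-fold and 1.15-fold lower than in total brain, although in cortex 1 of 3 reference signals was itself well above background. Such a bound replaces the dim signal by the array's lowest clearly detected signal, or by the dim signal where that is higher.

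**Figure D2:**
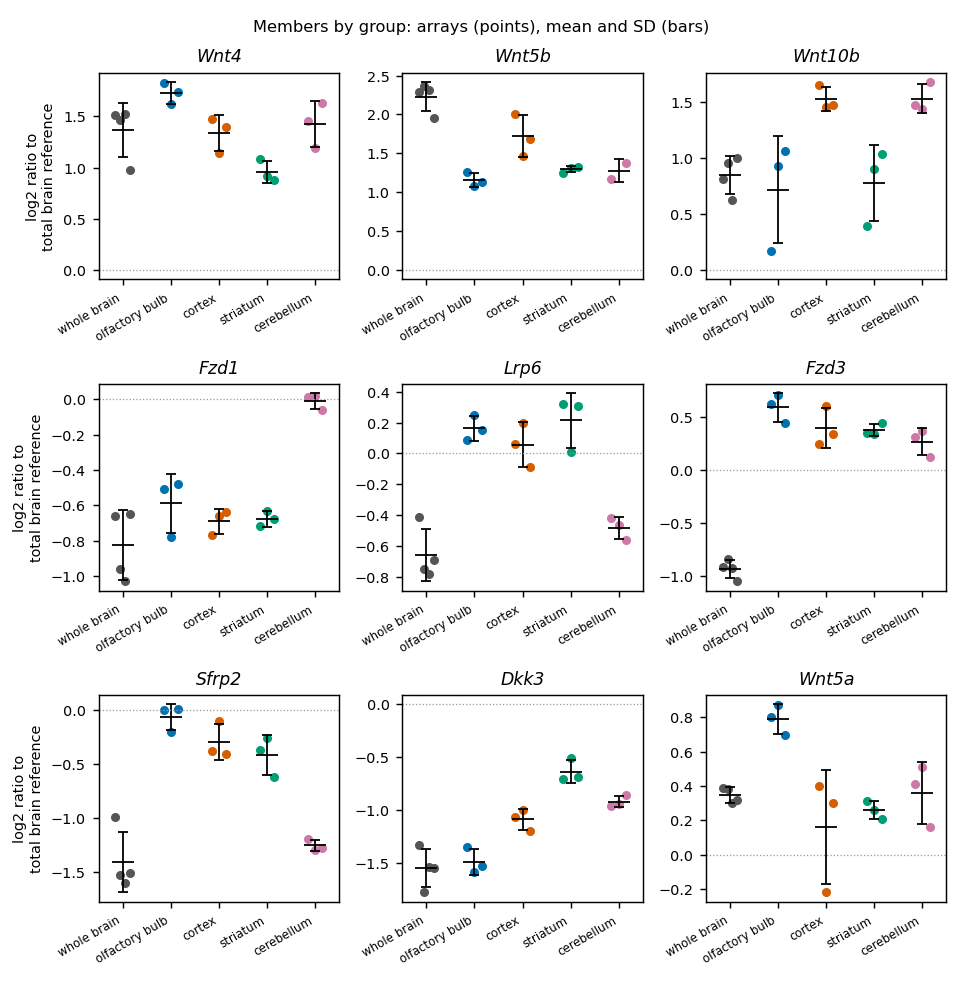
Log2 ratio to total brain (vertical axes, scaled per gene) of 9 members in the 5 groups. Points are arrays, and black bars give mean and SD. Sfrp2 and Lrp6 are low in cerebellum and whole brain, Fzd1 is near 0 in cerebellum alone, Dkk3 rises from olfactory bulb to striatum, and Fzd3 is below 0 in whole brain alone.

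Among the receptors, Fzd6, which is best known from planar cell polarity, was the furthest below total brain. It read -1.05, -1.19, -1.26 and -1.02 in whole brain, -1.27, -1.43 and -1.40 in olfactory bulb, -1.35, -1.58 and -1.61 in cortex, -1.16, -1.29 and -1.04 in striatum, and -1.56, -1.75 and -1.71 in cerebellum. All 16 arrays lay more than 2-fold below the reference, with cerebellum lowest and overlapping only cortex. The cerebellar mean of -1.67 ± 0.07 (SE, n = 3) is a 3.18-fold lower signal (adjusted p = 8.15e-14). Against the other regions the cerebellum was at -0.32 ± 0.08 (adjusted p = 0.0041), but at -0.03 with arrays scaled to a common spread (adjusted p = 0.833) and at -0.06 in the sorted-cell channel alone (adjusted p = 0.655).

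Fzd10 showed the opposite sign on its brighter probe. That probe read 0.75, 1.12, 1.22 and 1.04 in whole brain, 1.17, 0.99 and 0.89 in olfactory bulb, 0.79, 0.66 and 0.94 in cortex, 0.70, 0.53 and 0.71 in striatum, and 1.06, 1.23 and 1.05 in cerebellum. Striatum and cortex overlapped at the low end. The other Fzd10 probe had group means of -1.09 to -0.77, all below the reference, and its sorted-cell signal was well above background on 7 of 16 arrays. With the mean of both probes Fzd10 was at -0.06 in cortex and -0.22 in striatum, so its direction depends on the probe.

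**Figure D3:**
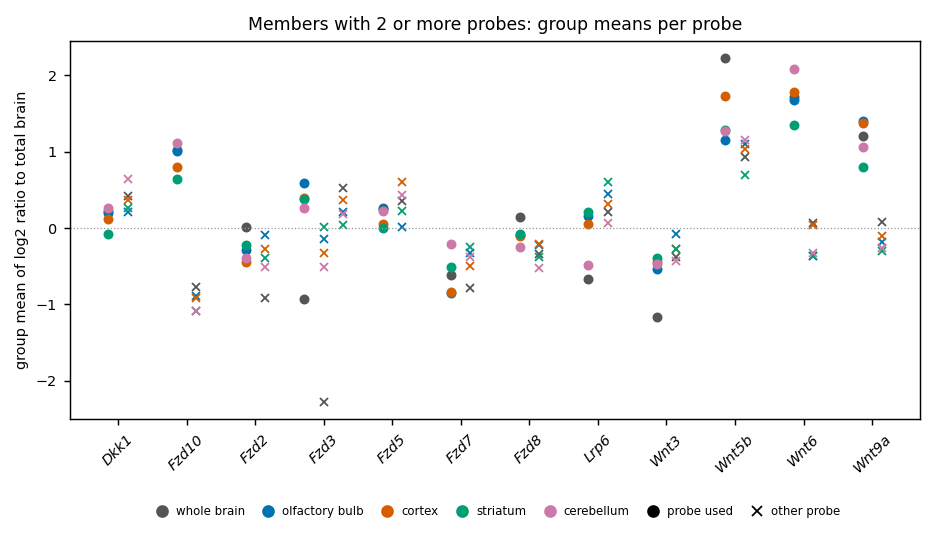
Group means of the log2 ratio to total brain (vertical axis) for the members represented by more than 1 probe, with each column of symbols a probe. Circles mark the probe used and crosses the other probes, including those of Fzd3 and Lrp6 that the array lists under another name. Probes of Wnt5b lie on 1 side of 0, whereas those of Fzd10, Wnt6 and Wnt9a do not.

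Fzd1, a receptor of the canonical branch, stood out in cerebellum. It read 0.01, 0.02 and -0.06 there, against -0.51, -0.78 and -0.48 in olfactory bulb, -0.77, -0.66 and -0.64 in cortex, -0.72, -0.63 and -0.68 in striatum, and -0.66, -0.96, -1.03 and -0.65 in whole brain. The cerebellar arrays, level with total brain, lay above every other array. The difference from the other 3 regions was 0.64 ± 0.09 (SE, n = 3; adjusted p = 1.55e-05), with 0.75 in the sorted channel and 0.11 in the reference channel, whose difference gives the ratio. Fzd7 had the same direction, with regional means of -0.21 in cerebellum, -0.51 in striatum, -0.84 in cortex and -0.85 in olfactory bulb, and a cerebellar difference of 0.53 ± 0.10 (adjusted p = 0.000389). The second Fzd7 probe did not share this order: its cerebellar mean of -0.38 lay between -0.50 in cortex and -0.25 in striatum.

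Lrp6, a co-receptor of the canonical branch, moved the other way in cerebellum. It read -0.42, -0.46 and -0.56 there, 0.09, 0.25 and 0.15 in olfactory bulb, 0.06, 0.20 and -0.09 in cortex, 0.32, 0.01 and 0.31 in striatum, and -0.41, -0.75, -0.78 and -0.69 in whole brain. Cerebellum and whole brain lay below every forebrain array. The cerebellar difference from the other regions was -0.62 ± 0.09 (adjusted p = 2.77e-05), and that of striatum was 0.30 ± 0.09 (adjusted p = 0.0179, but 0.118 without striatal array 1 and 0.103 without striatal array 3). A probe that the array lists under a clone name, but that shares the gene in RefSeq, gave 0.07 in cerebellum, 0.31 to 0.60 in the forebrain regions and 0.21 in whole brain, above the reference in all 5 groups. Lrp5, the other co-receptor, had a mean above the reference in every region, from 0.19 in striatum, which was not called, to 0.73 in olfactory bulb.

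The other receptors differed less between regions. Fzd9 was at -0.27 in cerebellum and between -0.64 and -0.51 in the forebrain regions. Fzd5 had regional means from 0 to 0.25, and Fzd4 from -0.51 to -0.23. The second Fzd5 probe had another order, from 0.02 in olfactory bulb to 0.61 in cortex. Fzd2 was below the reference in every region, at -0.44 to -0.22, yet with median centring it was at 0.20 in olfactory bulb and 0.12 in striatum. Fzd8 in cerebellum went from -0.25 to 0.02 in the same way. Fzd3 is described with whole brain.

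The antagonists held the widest regional difference of the family. Sfrp2, a secreted Frizzled-related protein that binds Wnt ligands, read 0.00, -0.20 and 0.01 in olfactory bulb, -0.38, -0.10 and -0.40 in cortex, and -0.37, -0.26 and -0.62 in striatum. It read -1.19, -1.29 and -1.27 in cerebellum, and -0.99, -1.52, -1.60 and -1.51 in whole brain. The cerebellar arrays lay below every forebrain array and within the range of whole brain, while olfactory bulb overlapped cortex, cortex overlapped striatum, and olfactory bulb lay above striatum. The range between regional means was 1.19, or 2.28-fold (moderated F test, adjusted p = 6.92e-06), and Sfrp2 was the only member at least 2-fold apart between regions, as were 3.77% of all genes tested.

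Against the other 3 regions, Sfrp2 in cerebellum was at -0.99 ± 0.11 (SE, n = 3; adjusted p = 1.43e-06). The sorted channel differed by -1.10 and the reference channel by -0.10. In olfactory bulb it was higher by 0.59 ± 0.11 (adjusted p = 0.000586). Both calls were kept under all 26 alternatives. Sfrp2 has no second probe, so the mean of all probes did not test them. Against total brain, cerebellum was 2.38-fold lower (adjusted p = 4.77e-10), and olfactory bulb was not called, at -0.06 ± 0.10 (adjusted p = 0.589). Cortex was at -0.29, which went to 0.01 with median centring.

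Dkk3, a divergent member of the Dickkopf family, was below total brain on every array and graded between regions. It read -1.35, -1.59 and -1.53 in olfactory bulb, -1.07, -1.0 and -1.20 in cortex, -0.96, -0.94 and -0.86 in cerebellum, -0.71, -0.51 and -0.69 in striatum, and -1.33, -1.78, -1.54 and -1.55 in whole brain. No 2 regions overlapped, and whole brain overlapped olfactory bulb. Against the other regions the olfactory bulb was at -0.60 ± 0.09 (SE, n = 3; adjusted p = 4.15e-05) and the striatum was higher by 0.53 ± 0.09 (adjusted p = 0.00021), and both calls were kept under every alternative. Dkk3 has no second probe, so the mean of all probes did not test these calls. Among the 3 forebrain regions its range of 0.85 was the widest of all members (adjusted p = 4.03e-05).

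Sfrp1 and Wif1 were low throughout. Sfrp1, a relative of Sfrp2, read -1.13, -1.29, -1.38 and -1.13 in whole brain, -1.03, -1.01 and -0.85 in olfactory bulb, -0.76, -0.93 and -0.89 in cortex, -0.82, -0.73 and -0.88 in striatum, and -1.09, -1.40 and -1.0 in cerebellum. Its regions overlapped, and its lower cerebellar value (-0.29 ± 0.09 against the others, adjusted p = 0.0122) was not called without cerebellar array 2 (-0.17, adjusted p = 0.145) or with scaling between arrays (-0.08, adjusted p = 0.389). Wif1, which binds Wnt ligands outside the cell, read -0.43, -0.80, -0.82 and -0.79 in whole brain, -0.83, -1.06 and -0.86 in olfactory bulb, -0.83, -0.93 and -0.98 in cortex, -0.89, -0.71 and -0.99 in striatum, and -0.98, -1.82 and -0.86 in cerebellum. Its sorted-cell signal was not well above background on any array of olfactory bulb or cortex, where it was at least 1.88-fold and 1.84-fold lower than in total brain. The groups overlapped.

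The other antagonists were Sfrp4, Sfrp5 and 3 members of the Dkk family that act on Lrp co-receptors. Sfrp4 was above the reference, with group means from 0.34 in cortex to 0.97 in whole brain, and the cortical value fell to 0.13 and lost its call without cortical array 2 (adjusted p = 0.475). Sfrp5 lay between -0.67 and -0.44. Its sorted-cell signal was not well above background on any cortical array, where it was at least 1.36-fold lower. Dkk1 had regional means from -0.08 in striatum to 0.26 in cerebellum, and Dkk4 from -0.07 to 0.14. The second Dkk1 probe ran from 0.21 in olfactory bulb to 0.65 in cerebellum, with striatum at 0.26. Dkk2 was at 0.34 in striatum, a value that went to -0.02 with median centring, and in olfactory bulb it was not well above background in either channel.

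Taking the 4 regions at once, 25 of 40 members were called in the moderated F test, beside 57.5% of all genes. Their median range between regional means was 0.39, against 0.38 for all genes. Within the 3 forebrain regions 16 were called (36.1% of all genes), but only 8 without striatal array 2 and 9 without striatal array 3. Single regions against the others called 11 members in olfactory bulb (29.8% of all genes), 4 in cortex (10.5%), 15 in striatum (30.2%) and 13 in cerebellum (40.5%). These comparisons share arrays. In striatum 10 of the 15 were lower (16.7% of all genes) and 5 higher (13.6%), the lower ones with 6 ligands among them, but the sorted-cell channel alone called 7, of which 2 were lower. Striatal calls also fell to 9 without striatal array 1 and to 7 without striatal array 2.

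The 4 cortical calls were Wnt5b, Wnt9a and Wnt10b, higher (4.45% of all genes), and Fzd7, lower (6.03%). In cerebellum 8 were higher (24% of all genes) and 5 lower (16.5%). None of the cortical 4 was kept under every alternative, and only 1 member was called without cortical array 1 or without cortical array 3, and 2 without cerebellar array 1 or without striatal array 2. With a smaller background offset the split of cortical calls was 2 higher and 3 lower, and with median centring 1 and 2. Calls kept under every alternative numbered 4 in olfactory bulb (Dkk3, Sfrp2, Wnt4 and Wnt5a), 4 in cerebellum (Fzd1, Fzd7, Lrp6 and Sfrp2) and 1 in striatum (Dkk3). The mean of all probes did not test those of Dkk3, Sfrp2, Wnt4, Wnt5a and Fzd1, which have no second probe. The other Lrp6 probe, listed under a clone name, was not part of that mean.

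Markers of other cell types also differed between regions, and the lists given here are not all of them. In striatum 5 of 7 astrocyte and radial glia markers were higher (mean log2 ratio -1.19 to -1.15, against -2.02 to -1.22 in the other regions), as were 4 of 5 proliferation markers. In olfactory bulb 4 of 5 microglial markers were lower (mean -1.06 to -0.79, against -0.59 to -0.08 elsewhere). Of 6 oligodendrocyte markers, 4 were lower there and 1 higher. Lower there too were 5 of 7 glutamatergic markers and 4 of 8 markers of striatal projection neurons. Of 9 markers of meninges and choroid plexus, 4 were lower and 1 higher. Of 5 proliferation markers, 3 were lower there. In striatum 3 of 5 microglial and 3 of 6 oligodendrocyte markers were higher, with 1 lower in each list. Endothelial and mural markers had 4 of 8 higher and 1 lower in striatum. In cortex 5 of 7 astrocyte and radial glia markers and 4 of 5 proliferation markers were lower. The part of these markers in the differences of Dkk3, Sfrp2, Wnt4 and Wnt5a was not tested.

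**Figure D4:**
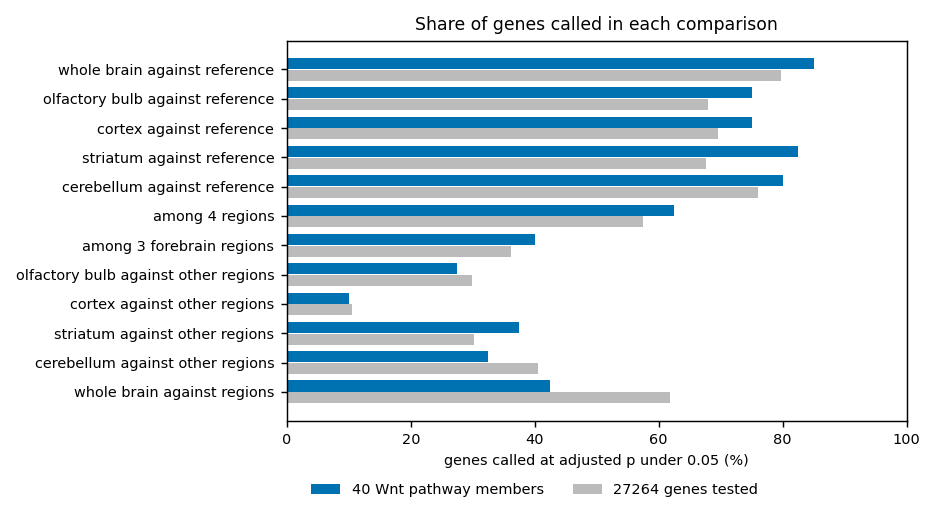
Percentage of genes called at an adjusted p under 0.05 (horizontal axis) in 12 comparisons, for the 40 members (blue) and for all 27264 genes tested (grey). The bars of members and of all genes lie close in most comparisons, and are furthest apart for whole brain against regions, at 42.5% and 61.8%.

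Genes that the canonical branch switches on, several of which damp it, were taken as a list from the wider pathway. That list was chosen with earlier results of these data known, so its counts are a description and not a test of the list. Of 9 measured feedback and target genes, 7 were higher in cerebellum than in the other regions and 0 were lower (24% of all genes were called higher). The list median was 0.77, and that of all genes was 0.05. Notum, a secreted enzyme that inactivates Wnt proteins by removing their lipid, was higher by 1.08 ± 0.08 (SE, n = 3; adjusted p = 6.36e-09). The transcription factor Sp5 was higher by 0.96 ± 0.11, the cyclin Ccnd1 by 0.90 ± 0.10, the Dishevelled-binding inhibitors Nkd1 and Nkd2 by 0.86 ± 0.08 and 0.77 ± 0.10, Myc by 0.57 ± 0.12 and the membrane inhibitor Apcdd1 by 0.46 ± 0.07. Axin2, a widely used reporter of the pathway, was not called, at -0.10 ± 0.09 (adjusted p = 0.378), but its sorted-cell signal was well above background on no array of olfactory bulb or cortex and on 1 of 3 cerebellar arrays, so this value does not measure a difference. The ubiquitin ligase Rnf43, well above background on all 16 arrays, was not called either, at 0.18 ± 0.09.

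The arrays of Notum read 1.18 to 1.25 in cerebellum and -0.04 to 0.21 in the 3 forebrain regions, with no overlap. Those of Sp5 read 0.25 to 0.93 in cerebellum and -0.57 to -0.24 in the forebrain, and those of Nkd1 -0.22 to -0.05 and -1.38 to -0.80. In whole brain Notum was at 0.93 and Sp5 at 0.72, both above every forebrain array, while Ccnd1 was at -0.92 and Apcdd1 at -2.02. Second probes of Nkd1 and Nkd2 also had their highest regional mean in cerebellum, as did that of Notum, though at 0.35 against 0.13 to 0.28 elsewhere. Both other probes of Myc went against the chosen one, with their lowest regional means in cerebellum (-1.24 and -1.22). Taking the mean of all probes left 6 genes higher and 1 lower.

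**Figure D5:**
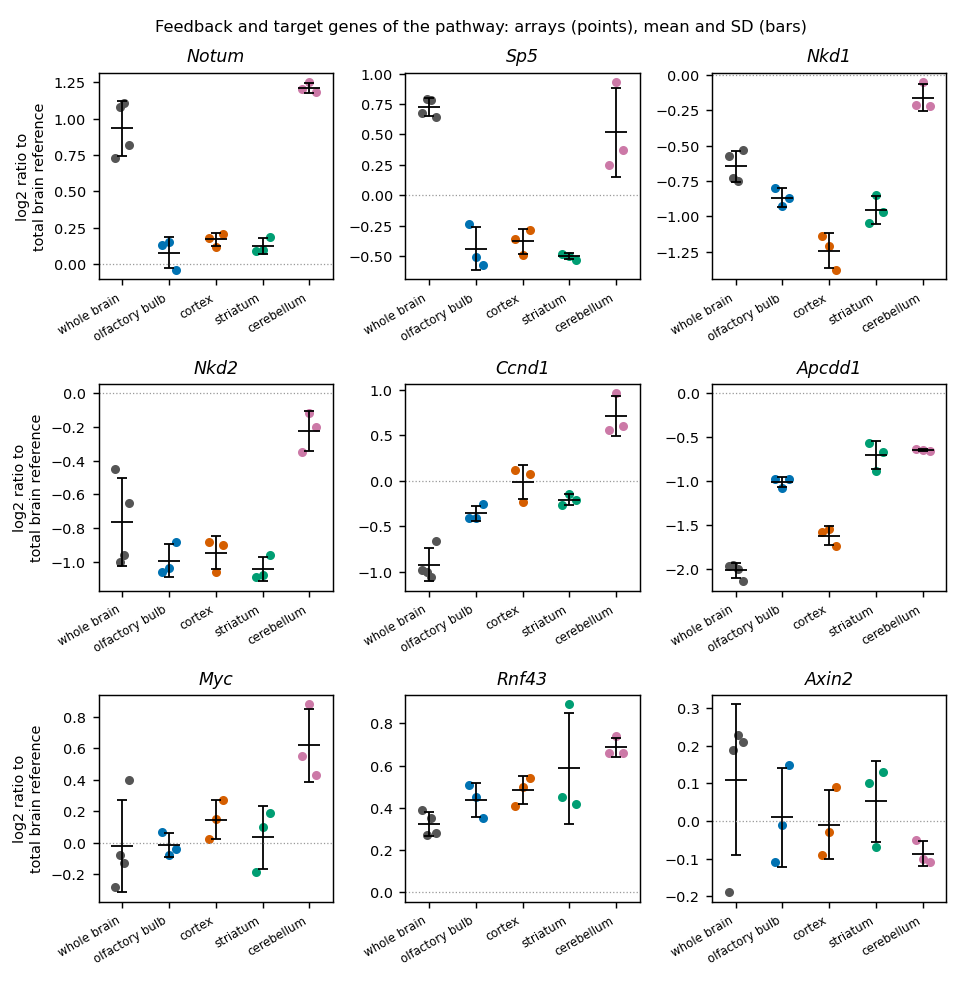
Log2 ratio to total brain (vertical axes, scaled per gene) of 9 feedback and target genes in the 5 groups. Points are arrays, and black bars give mean and SD. Cerebellum lies above every forebrain array for Notum, Sp5, Nkd1, Nkd2, Ccnd1 and Myc, but not for Rnf43, Apcdd1 or Axin2.

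The cerebellar arrays also differed from the others in markers of cell types. Of 7 markers of the granule cell lineage, which is glutamatergic, 6 were higher in cerebellum, and their mean log2 ratio was 0.94 to 1.25 there and -0.62 to -0.12 on the forebrain arrays. The 5 markers of proliferating cells had a mean of 0.39 to 0.65 in cerebellum and -0.19 to 0.69 in the forebrain, and 2 of them were higher in cerebellum. Markers of GABAergic neurons were lower there, as given above, with 5 of 7 called lower, which were the Dlx genes and Gad2, while Gad1 was at 0.00 and Slc32a1, which loads GABA into vesicles, at 0.91 and called higher. Of 4 markers of cerebellar GABAergic neurons 3 were higher. Also called in cerebellum were 4 higher and 1 lower of 7 glutamatergic markers (mean -1.07 to -0.96 there, -2.11 to -1.53 in the forebrain), and 4 higher and 1 lower of 7 astrocyte and radial glia markers. Oligodendrocyte markers had 3 of 6 higher and microglial markers 3 of 5. The part of these markers in the differences of Sfrp2, Fzd1, Lrp6 and the feedback genes was not tested.

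The factors of canonical signalling, Tcf and Lef, bind a short motif whose core was searched here as CTTTGA, on both strands, in the 250 bases before each gene start (RefSeq, mouse GRCm38.p6). It stood in 3797 of 27025 windows, or 14%, and in 3 of the 26 member windows with an entry, or 11.5%, which were Dkk1, Fzd1 and Wnt11. The median share of G and C bases was 71.2% in member windows and 52% in all windows, so these shares are not like for like. Of 5 feedback genes with an entry, 1 held it, namely Sp5, with 2 matches. The feedback genes Notum, Ccnd1, Myc and Apcdd1, also called higher in cerebellum, had no entry. Matches are shown in capitals, written as TCAAAG where the match is on the other strand. The windows of Sp5 and Fzd1 are printed because both genes were higher in cerebellum and held a match. They lie at chr2:70474673-70474922 (plus strand) and chr5:4758217-4758466 (minus strand), just upstream of the gene, and are given 5′ to 3′ on the strand of the gene.
Sp5: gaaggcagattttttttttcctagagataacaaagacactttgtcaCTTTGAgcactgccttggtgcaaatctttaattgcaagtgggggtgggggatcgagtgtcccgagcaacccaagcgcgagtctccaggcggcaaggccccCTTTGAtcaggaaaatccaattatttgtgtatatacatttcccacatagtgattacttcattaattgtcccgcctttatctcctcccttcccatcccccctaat
Fzd1: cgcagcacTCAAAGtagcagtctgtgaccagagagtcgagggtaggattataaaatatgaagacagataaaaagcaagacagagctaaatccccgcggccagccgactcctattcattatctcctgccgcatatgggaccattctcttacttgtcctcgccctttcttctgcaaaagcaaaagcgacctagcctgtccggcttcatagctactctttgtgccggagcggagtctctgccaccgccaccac
The windows of Nkd1, Nkd2, Fzd7, Fzd9, Fzd10, Wnt6 and Wnt10b, genes also called higher in cerebellum, held no match. A match describes letters and not a bound site.

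The other lists of the pathway differed in how many genes were called among the 4 regions, beside 57.5% of all genes. Of 15 intracellular and membrane transducers 14 were called, of 12 receptors and planar polarity genes of the branch without beta-catenin 8, and of 15 genes for ligand secretion and extracellular partners 7. Past 2-fold among regions were Ctnnb1 (range of 1.36), Frzb (1.24), Tcf7l2 (1.21), the R-spondin Rspo4 (1.12) and Celsr2 (1.04). Against the other regions, 24% of all genes were called higher and 16.5% lower in cerebellum, and 29.8% were called in olfactory bulb. The secretion list had 1 higher and 2 lower of 15 in cerebellum, and 4 called in olfactory bulb. Frzb, a secreted relative of the Sfrp family, was higher in olfactory bulb by 1.04 ± 0.14 (SE, n = 3; adjusted p = 1.98e-05), with a mean of 0.01 there and -1.23 to -0.81 in the other regions. Of the 12 genes of the branch without beta-catenin, 4 were higher and 1 lower in cerebellum, where Celsr2, a large cadherin of planar polarity, had the largest difference, 0.95, shared by its other probe. Of the 15 transducers, 5 were higher and 6 lower in cerebellum. Ctnnb1, which encodes beta-catenin, was at -0.98 there (adjusted p = 3.35e-09). Of its other 2 probes, 1 was also lowest in cerebellum among the regions, at -1.04, and 1 was not, at 0.72. Tcf7l2, a nuclear partner of beta-catenin, was below total brain in all 5 groups, at -2.52 to -1.31, and 2 of its 3 other probes were lower in all 5 groups as well.

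Whole brain differed from the mean of the 4 regions in 17 members, 8 higher (31.3% of all genes) and 9 lower (30.5%), beside 61.8% called in all. With median centring the count was 28, with 19 higher and 9 lower. Fzd3, a receptor needed for axon tract formation, was the only member past 2-fold (9.81% of all genes). It read -0.92, -0.84, -0.93 and -1.05 in whole brain, 0.62, 0.70 and 0.44 in olfactory bulb, 0.24, 0.60 and 0.34 in cortex, 0.35, 0.34 and 0.44 in striatum, and 0.31, 0.36 and 0.12 in cerebellum. Every whole-brain array was below the reference and every regional array above it, and the difference was -1.34 ± 0.07 (adjusted p = 3.31e-12). Its probes did not meet: a second Fzd3 probe gave 0.53 in whole brain and 0.04 to 0.37 in the regions, and a brighter one listed under another name, so not among the members' probes, gave -2.28 and -0.51 to 0.01.

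Sfrp2 (-0.90 ± 0.10), Wnt3 (-0.70 ± 0.09), Lrp6 (-0.64 ± 0.08), Wnt7a (-0.53 ± 0.06) and Dkk3 (-0.51 ± 0.07) were also lower in whole brain than in the regions. Wnt5b (0.87 ± 0.09), Fzd9 (0.53 ± 0.07) and Wnt9b (0.44 ± 0.07) were higher. The second probe of Wnt5b did not share this, nor did the clone-named probe of Lrp6 lie below the reference in whole brain. On the second Wnt3 probe whole brain, at -0.38, was not below cerebellum, at -0.43. For Wnt5b the reference channel differed by -0.53 and the sorted channel by 0.33. The dissected regions do not make up the whole brain, and, as with Gad1, scan day and source cannot be told apart here. Intracellular transducers had 8 of 15 lower and 2 higher in whole brain than in the regions, 5 of them past 2-fold. These were Ctnnb1 at -1.52, the scaffold genes Axin1 at -1.29 and Apc at -1.25, Dvl2, which relays the receptor signal, at -1.03, and Gsk3b, the kinase that marks beta-catenin for degradation, at -2.80, though the second Gsk3b probe had a whole-brain mean of -0.40 against -2.35 for the first. Of the 4 probes of Apc, 2 were below the reference in whole brain and 2 above it. The Ctnnb1 probe used read -2.03 in whole brain and another read -0.99. The remaining Ctnnb1 probe went the other way, at 1.58 in whole brain and 0.49 to 0.72 in the regions. Past 2-fold in the other lists were the co-receptor Ptk7, at -2.24, Celsr2, at -1.15, the glypican Gpc3, at -1.30, and Apcdd1, at -1.02.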

How the data were processed

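Each array compared sorted cells (Cy5) with total brain (Cy3). Per the file headers, the deposited files hold mean spot intensity and local background intensity per channel, and a log10 ratio that the authors obtained with Agilent Feature Extraction 8.1.1.1 (per the submitters' processing notes). In the value table that the authors deposited, entries differ from it by less than 0.005. The dye names in the labels give the direction, although they call the Cy3 reference red. Dyes were not swapped.

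From the intensities, log2 ratios were made in R 4.3.3 using limma 3.58.1. Background was corrected by normexp (offset 50, so dim spots have ratios pulled towards 0), followed by loess within arrays. Marked spots were left out, as was 1 spot with a broken line. Spots of a probe were averaged, and each gene took its brightest probe. Genes were kept if the scanner marked them well above background for sorted cells on 3 or more arrays, or for total brain on 8 or more. All 16 arrays were fitted with 5 group means (lmFit and eBayes), and an adjusted p under 0.05 was a call. SE values are limma's. The scripts were tested on simulated data. Signal over background and the number of arrays limit the precision. Figures were drawn with matplotlib 3.10.9.

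Members and pathway and marker lists were chosen with earlier results of these data known. Values on every array are given for members at least 2-fold apart between regions, or called and at least 2-fold from the reference in a group. Fzd1, Fzd3, Lrp6 and Wnt5a, and feedback genes under 2-fold, were added after their values were seen. Other pathway genes are named where called and at least 2-fold in the comparison described, or as a list's largest difference, with Tcf7l2 against the reference added afterwards. Alternatives varied the offset, normalization, filter, probe rule, channel, replicate block and arrays included.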

Additional observations from a re-analysis of the deposited data

Results flagged for a closer look

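On the whole-brain arrays, 5 members had an array apart from the other 3, by a test that flags about 1 in 20 groups by chance. Array 1 was highest for Sfrp2, at -0.99, and for Wif1, at -0.43. Array 4 was lowest for Wnt4, at 0.98, for Wnt5b, at 1.95, and for Wnt6, at 1.48. Fzd3 differed between whole brain and the regions by -1.34, with every whole-brain array below the reference and every regional array above it. Lrp6 differed from the other regions by 0.30 in striatum and by -0.62 in cerebellum, where it was called above and below the reference respectively.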

How the results depend on the processing

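Of 260 member calls, the alternatives kept between 210 (median centring) and 258 (no filter on dim genes), apart from the stricter filter, 12 regional arrays alone and the sorted-cell channel, which apply to fewer calls. Counts moved by over 1.5 times as follows, and the cause was not tested. For cortex against the other regions (4 calls), the mean of all probes gave 2, and scaling between arrays and the scanner log ratio gave 8 each. For olfactory bulb (11 calls), these were 7 with the mean of probes, 18 with median centring, 18 with the scanner log ratio and 17 in the sorted channel. For striatum (15 calls) the sorted channel gave 7, and for whole brain against regions (17 calls) median centring gave 28. Leaving out each array in turn gave 1 to 6 for cortex, 7 to 16 for striatum and 8 to 18 for the 3 forebrain regions. The feedback gene count of 7 stayed between 6 and 8, over alternatives chosen after seeing the data. Median centring reversed Dkk2 (-0.02) and Wnt10a (-0.01) in striatum, Fzd2 in olfactory bulb (0.20) and striatum (0.12), Fzd7 (0.08) and Fzd8 (0.02) in cerebellum, Sfrp2 in cortex (0.01), and Wnt7b in cortex (0.04), olfactory bulb (0.16) and striatum (0.06), all against the reference. The mean of probes reversed Fzd10 in cortex (-0.06) and striatum (-0.22), Fzd8 in whole brain (-0.09), and Fzd2 in whole brain against regions (-0.12). The sorted channel reversed Fzd10 in striatum against the other regions (0.21). Median centring also moved the split of calls against the reference to 20 higher and 13 lower in olfactory bulb, 18 and 12 in cortex, 18 and 14 in striatum, and 17 and 11 in cerebellum. The scanner log ratio shifted the median of all genes in whole brain from 0.09 to 0.25. Deviations from group means correlated at -0.11 to 0.23 between regional arrays of the same replicate number (median 0.03, 18 pairs). For other numbers they correlated at -0.23 to 0.24 (median -0.02, 36 pairs). With 3 arrays per region, these values cannot settle whether regional samples share animals. A fit with the number as a replicate block, on 15 arrays, kept 256 calls and lost 4, with 28 members called among regions. A slide or scan block was not run, since each array was its own slide and scan day separated whole brain from regions.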
